A study of Mus musculus with 12 samples.

Results

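The TNF superfamily ligands are trimeric proteins, most of them anchored in the cell membrane, through which T cells signal to receptor-bearing neighbours. The 10 ligand genes examined here (Tnf, Lta, Ltb, Cd70, Cd40lg, Fasl, Tnfsf4, Tnfsf10, Tnfsf11 and Tnfsf14) were chosen by gene symbol, and all 10 were present among the 11022 genes of the expression table. Earlier results of these data were known when they were chosen, so counts of ligands beside shares of all genes are a description. The cells were P14 cytotoxic T lymphocytes (CTL), mouse CD8+ T cells that carry 1 transgenic T cell receptor (TCR) specific for the LCMV peptide gp33–41. They came from the lymph nodes or spleens of female P14 mice aged 9 to 13 weeks. The paper describes 3 mice as the source of 3 biological replicates. The cells were primed for 48 h with peptide, IL-2 and IL-12, and were then expanded for 5 days in IL-2. On day 7 there were 4 groups of 3 biological replicates, all kept in IL-2 at 20 ng/mL: unstimulated CTL, CTL retriggered for 4 h with gp33–41 at 100 ng/mL (TCR), CTL retriggered in the presence of IC87114 at 10 µM (PI3Kdi), and CTL retriggered in the presence of PD184252 at 2 µM (MEKi). IC87114 inhibits the lipid kinase PI3K p110δ, and PD184252 inhibits MEK1/2, the kinases that activate ERK1/2. The cells were thus expanded in vitro, the transgene rather than infection supplies the receptor, and neither inhibitor was given without peptide. The authors describe no sorting step for these CTL.

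As background, each ligand binds receptors of the TNF receptor superfamily, which recruit TRAF adaptors that lead to NF-κB, or, for the death receptors, FADD and caspase 8. In T cells the family serves both effector and helper-like roles: TNF and lymphotoxin drive inflammation, FASL and TRAIL kill target cells, and CD40L, CD70, OX40L, RANKL and LIGHT act on antigen-presenting cells or on other T cells. TNF mRNA is short-lived in resting cells because proteins of the ZFP36 group bind AU-rich elements after its stop codon.

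Levels are FPKM, fragment counts scaled for exon length and library size, and are compared here between genes and between groups. Comparison between groups rests on that scaling. The mean FPKM sum was 480159 in unstimulated CTL, 639396 with TCR, 563394 with PI3Kdi and 533000 with MEKi. A gene was called where limma gave a Benjamini-Hochberg adjusted p under 0.05 over all 11022 genes together with more than a 2-fold change. Replicates of a group correlated across genes at r = 0.992 to 0.995, and no pair of replicates fell below that range. Estimated effective depth was 7760000 to 13240000 reads per library. All 6 markers of cytotoxic CD8 T cells were present (Cd8a at 213 to 430 FPKM over the 12 libraries, with means of 221 ± 8.01 FPKM in unstimulated CTL and 360 ± 6.73 FPKM with TCR), while 0 of 5 B cell and 0 of 4 erythroid markers were in the table. Of 7 myeloid and dendritic markers, Cd68 (4.88 to 8.44 FPKM) and Itgax (0.29 to 0.75 FPKM) were listed, and of the 2 NK markers Klrb1c at 1.31 to 6.23 FPKM. Klrb1c was lower with TCR than in unstimulated CTL (log2 change -1.53, adjusted p = 4.79e-07), and its part in the ligand values was not tested. In bulk RNA, a smaller share of producing cells and less mRNA per cell cannot be told apart.

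Where do the ligand genes lie, and which sequences flank them? Of the 10, 5 sit on mouse chromosome 17 in 2 groups (GRCm38, GENCODE M21). Ltb (chr17:35194439-35196320, plus strand), Tnf (chr17:35199381-35202007, minus strand) and Lta (chr17:35203165-35205351, minus strand) are direct neighbours, with 3060 bases between Ltb and Tnf and 1157 bases between Tnf and Lta. Cd70 (chr17:57145997-57149777, minus strand) lies 39.7 kb from Tnfsf14 (chr17:57189492-57194177, minus strand). Tnfsf4 (chr1:161395409-161418410, plus strand) and Fasl (chr1:161780689-161788495, minus strand) are 362 kb apart on chromosome 1. The other members stand alone: Tnfsf10 (chr3:27317028-27342427, plus strand), Tnfsf11 (chr14:78277445-78308043, minus strand) and Cd40lg (chrX:57212143-57224042, plus strand). No exon of the 10 overlaps an exon of another gene, and 0% of the 100-base stretches of their transcripts recur in transcripts of other genes.

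RefSeq promoters (GRCm38.p6) were matched for 7 of the 10 ligands. Tnf, Lta, Tnfsf14 and Fasl are shown because they span the range of responses described below, from the most abundant induced ligand to one that changed little. Each line holds the 250 bases before the RefSeq start, 5′ to 3′ on the gene's strand. Capitals mark GGAAA, the core bound by NFAT factors, or its reverse complement TTTCC, the AP-1 site TGACTCA or its reverse complement TGAGTCA, and TATAAA.
Tnf promoter, chr17:35202008-35202257, minus strand: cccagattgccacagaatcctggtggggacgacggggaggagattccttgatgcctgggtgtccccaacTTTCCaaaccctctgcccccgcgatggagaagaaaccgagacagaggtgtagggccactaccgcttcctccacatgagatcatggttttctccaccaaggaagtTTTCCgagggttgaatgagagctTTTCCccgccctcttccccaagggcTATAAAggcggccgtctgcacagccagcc
Lta promoter, chr17:35205352-35205601, minus strand: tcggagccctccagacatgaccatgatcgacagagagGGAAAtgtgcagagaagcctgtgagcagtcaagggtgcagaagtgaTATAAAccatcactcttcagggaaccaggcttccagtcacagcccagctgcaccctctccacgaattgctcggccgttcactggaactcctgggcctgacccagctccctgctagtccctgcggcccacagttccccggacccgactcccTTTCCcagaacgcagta
Tnfsf14 promoter, chr17:57194182-57194431, minus strand: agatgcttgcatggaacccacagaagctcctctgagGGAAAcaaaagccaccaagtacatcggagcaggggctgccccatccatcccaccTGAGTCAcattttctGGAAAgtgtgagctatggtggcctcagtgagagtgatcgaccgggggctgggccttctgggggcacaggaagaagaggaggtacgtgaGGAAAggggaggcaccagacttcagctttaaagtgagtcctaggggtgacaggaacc
Fasl promoter, chr1:161788496-161788745, minus strand: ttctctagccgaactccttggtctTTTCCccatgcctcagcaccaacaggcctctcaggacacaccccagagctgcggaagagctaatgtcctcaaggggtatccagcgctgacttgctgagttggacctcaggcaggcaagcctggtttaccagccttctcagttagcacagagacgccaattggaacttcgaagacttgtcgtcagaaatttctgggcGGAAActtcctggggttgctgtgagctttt
The Tnf window holds 3 NFAT cores, starting 181, 77 and 54 bases before the start, and a TATAAA at base 29. Lta holds 2 NFAT cores and a TATAAA, at base 167. In the Tnfsf14 window there are 3 NFAT cores and an AP-1 site, which begins 160 bases before the start, and the Fasl window holds 2 NFAT cores. These letters are common: of 27025 mouse promoters of the same length, 55.6% hold GGAAA on either strand, 13% TATAAA and 4.43% the AP-1 site. Of the windows not printed, Ltb has 1 NFAT core that overlaps a match to the NF-κB consensus (in 7.01% of promoters), Tnfsf10 has 1, and Tnfsf11 has 1 with a TATAAA on the opposite strand. Searches on both strands for the CRE TGACG core (in 17.9% of promoters) found 1 each in Fasl and Tnfsf10, and the FOXO site TGTTTAC (3.09%) was matched in Ltb alone, while the ETS site CCGGAAG (7.05%), the full CRE (1.62%) and the EGR consensus (3.05%) were matched in none of the 7 windows. The matches are a description of sequence and were not tested against expression.

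The mRNA 3′ ends also differ. Tnf has 8 copies of the AU-rich pentamer ATTTA in the 764 bases after its stop codon, a number that 11.4% of 9735 genes reach, and 5 copies of the AU-rich nonamer, ATTTA flanked by TT on either side, of which 8.33% of genes have any and 0.647% have 3 or more. The densest 30 bases of Tnf and Lta are given with the pentamers in capitals.
Tnf, bases 437 to 466 after the stop codon: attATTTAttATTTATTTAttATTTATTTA
Lta, bases 300 to 329 after the stop codon: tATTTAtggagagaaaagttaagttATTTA
Lta has 3 pentamers, among them 1 nonamer, in 572 bases. Ltb has 0 in 174 bases, Cd70, Fasl and Tnfsf14 have 1 each, and Cd40lg and Tnfsf4 have 2 each, against a median of 2 over all genes. Tnfsf11 has 6 in 1131 bases and Tnfsf10 has 8 in a longer 3998 bases, with no nonamer in either.

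The first comparison asked how retriggering the TCR changes ligand mRNA. It raised 8 of the 10 ligands (Tnf, Lta, Cd70, Cd40lg, Tnfsf4, Tnfsf10, Tnfsf11 and Tnfsf14) and lowered none, where 8.87% of all genes were called higher, 11.1% lower and 20.0% in either direction. Cd70, at 0, 0 and 0.09 FPKM in unstimulated CTL, could pass the authors' low-count filter only through the stimulated groups. Its call as higher was thus favoured in advance, although it is counted in the 8. The median log2 change was 3.35 over the ligands, which does not rest on the size of the Cd70 change given below, and -0.01 over all genes. The groups did not overlap for any of the 10, which was so for 71.2% of all genes.

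Among the soluble and membrane-bound ligands of TNF and lymphotoxin receptors, Tnf was at 61.1, 70.7 and 57.1 FPKM in unstimulated CTL and at 3026, 3186 and 3544 FPKM after TCR stimulation. Its mean rose 51.7-fold, from 63.0 ± 7.02 to 3252 ± 266 FPKM (SD, n = 3; log2 change 5.69, SE 0.19, adjusted p = 2.08e-12), which moved it from rank 1236 to rank 14 among the 11022 genes. Lta, which encodes lymphotoxin α, was the most abundant of the 10 before stimulation at 126, 143 and 122 FPKM, and stood at 381, 371 and 432 FPKM afterwards. That is a 3.02-fold rise in the mean, from 130 ± 10.8 to 395 ± 33.1 FPKM (log2 change 1.60, SE 0.12, adjusted p = 1.76e-08). Ltb, whose product joins lymphotoxin α in the membrane-bound heterotrimer, was at 46.8, 47.1 and 45.9 FPKM without and 39.8, 37.5 and 45.8 FPKM with peptide. The nearest values of both Ltb groups were almost equal, and the change of -0.19 on the log2 scale (95% interval -0.41 to 0.03, adjusted p = 0.116) was not called. When each library was rescaled to a common FPKM sum it was -0.60 (adjusted p = 5.30e-05), again within 2-fold. So 3 adjacent genes responded to very different extents: the ratio of Tnf to Lta mRNA was 0.482 ± 0.0146 in unstimulated CTL and 8.25 ± 0.328 after TCR stimulation.

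**Figure D1:**
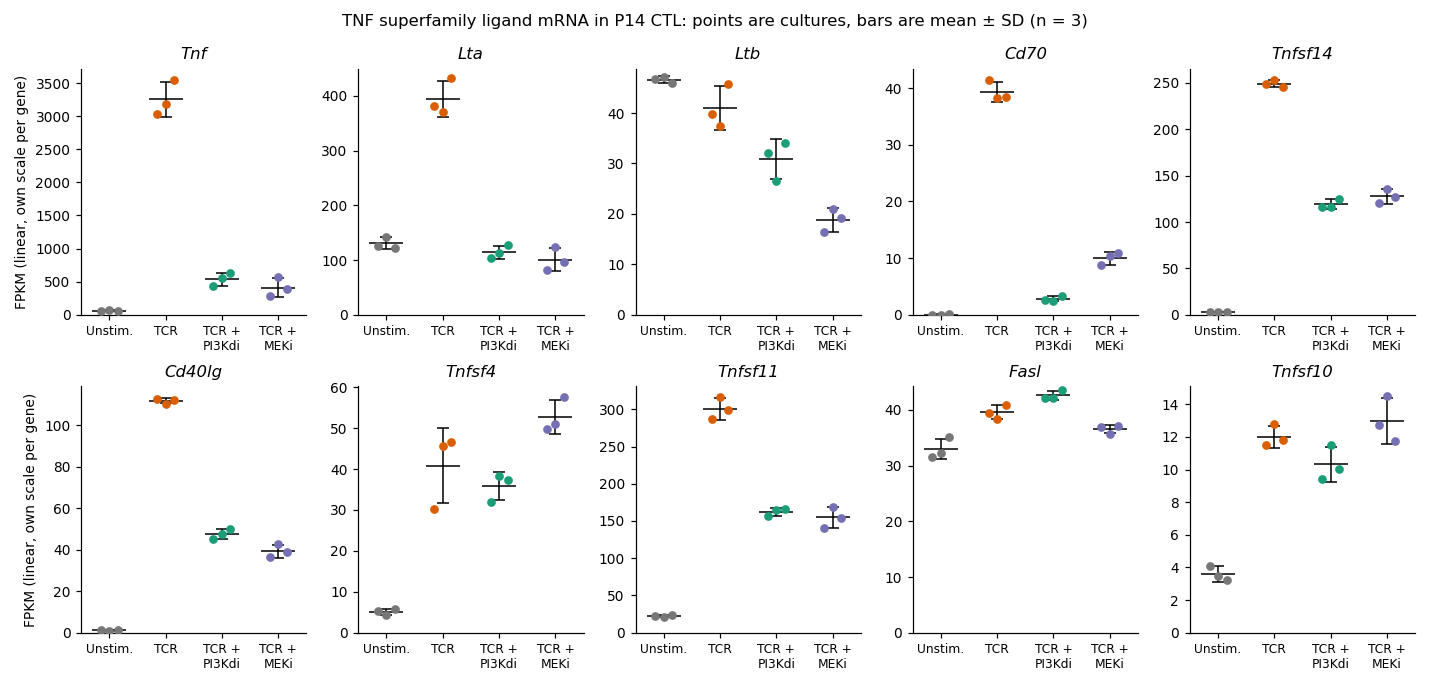
FPKM of the 10 ligands (linear y axis with its own scale per gene, from 0) in unstimulated, TCR, TCR + PI3Kdi and TCR + MEKi cultures; points are cultures, horizontal lines the mean and bars the SD (n = 3). With TCR, Tnf reached a mean of 3252 FPKM, and with either inhibitor it lay between 276 and 625 FPKM, while Fasl stayed between 31.6 and 43.6 FPKM over all 12 cultures.

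Among the ligands that act on T cells and antigen-presenting cells, 3 rose the most, from low levels to well above the median gene. Cd70, the ligand of CD27, was listed at 0, 0 and 0.09 FPKM in unstimulated CTL, and at 41.4, 38.3 and 38.4 FPKM after stimulation. At the estimated depth, 0.09 FPKM of Cd70 corresponds to about 1 read. The size of its rise cannot be given, since its fitted log2 change ran from 5.29 to 10.83 with the constant added before the logarithm, although it was called each time (adjusted p = 5.14e-14). Cd40lg, the ligand through which T cells license antigen-presenting cells, went from 1.5, 0.84 and 1.14 to 113, 110 and 112 FPKM, a 96.3-fold rise (log2 change 6.51, SE 0.13, adjusted p = 7.27e-15). Tnfsf14, which encodes LIGHT, went from 3.5, 3.10 and 3.16 to 249, 253 and 246 FPKM, a 76.7-fold rise (log2 change 6.22, SE 0.06, adjusted p = 2.33e-18). These 3 genes lay at ranks 10941, 9669 and 8347 of 11022 before stimulation, and at ranks 2145, 750 and 314 after it.

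Tnfsf11, the gene of RANKL, was already present at 22.6, 20.7 and 24.0 FPKM and reached 287, 316 and 299 FPKM, a 13.4-fold rise (log2 change 3.74, SE 0.07, adjusted p = 2.76e-15). With TCR it was the third most abundant of the 10, after Tnf and Lta. Tnfsf4, which encodes OX40L, rose 7.98-fold, from 5.26, 4.29 and 5.8 to 30.3, 45.6 and 46.6 FPKM (log2 change 2.96, SE 0.14, adjusted p = 1.29e-10). Replicate 1 was the low value among the stimulated cultures, yet above every unstimulated one.

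The death ligands responded less than most. Tnfsf10, the gene of TRAIL, rose 3.34-fold, from 4.11, 3.47 and 3.20 to 11.5, 12.8 and 11.8 FPKM (log2 change 1.72, SE 0.11, adjusted p = 2.70e-09). Fasl was at 31.6, 32.3 and 35.1 FPKM in unstimulated CTL and at 39.5, 38.4 and 41.0 FPKM after stimulation. The Fasl groups did not overlap, and the difference of 0.26 on the log2 scale (95% interval 0.15 to 0.38, adjusted p = 0.000482) was within 2-fold. Its sign rests on the scaling, since it was -0.15 on the common FPKM sum.

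What does inhibition of PI3K p110δ do to these mRNA? With PI3Kdi, 5 of the 10 ligands were called lower than with TCR alone (Tnf, Lta, Cd70, Cd40lg and Tnfsf14) and 0 higher, where 1.38% of all genes were called lower, 0.499% higher and 1.88% in either direction. The median log2 difference was -0.98 over the ligands and 0.02 over all genes. Values did not overlap for 8 of the 10, against 37.6% of all genes.

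Cd70 fell the most, to 2.61, 2.52 and 3.32 FPKM, which is 7.16% ± 1.11 of its mean with TCR alone (log2 difference -3.77, SE 0.20, adjusted p = 3.40e-08). Its rank went from 2145 to 8566. Tnf fell to 434, 556 and 625 FPKM, or 16.6% ± 2.96 of the TCR mean (log2 difference -2.61, SE 0.19, adjusted p = 4.92e-07), although at rank 149 it was still among the most abundant mRNA. Lta fell to 103, 112 and 127 FPKM, 28.9% ± 3.02 of the TCR mean (log2 difference -1.79, SE 0.12, adjusted p = 2.37e-07), and these values overlapped those of unstimulated CTL (difference from unstimulated -0.19, 95% interval -0.45 to 0.06, adjusted p = 0.171).

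Cd40lg and Tnfsf14 fell less, and both calls were lost when the 2-fold limit was built into the test (limma treat). Cd40lg was at 45.0, 47.6 and 49.97 FPKM, 42.5% ± 2.21 of the TCR mean (log2 difference -1.23, SE 0.13, adjusted p = 1.77e-05), and Tnfsf14 at 116, 116 and 125 FPKM, 47.8% ± 2.12 of it (log2 difference -1.07, SE 0.06, adjusted p = 4.78e-08). The call of Tnfsf14 sits at the 2-fold limit: its difference was -0.88 after rescaling to a common FPKM sum and -0.87 after quantile normalisation, so neither was called. Tnfsf11 was just inside that limit at 157, 164 and 167 FPKM, 54.1% ± 1.73 of the TCR mean (log2 difference -0.89, SE 0.07, adjusted p = 1.02e-06), with every culture below every TCR culture.

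The other 4 ligands were nearer to their level with TCR alone. Ltb was at 32.1, 26.5 and 34.1 FPKM, a log2 difference of -0.41 (SE 0.10, adjusted p = 0.00907) that was below 2-fold. Tnfsf4 (31.9, 38.4 and 37.2 FPKM) and Tnfsf10 (9.42, 11.5 and 10.1 FPKM) overlapped the TCR cultures. Their log2 differences were -0.17 (95% interval -0.48 to 0.14, adjusted p = 0.431) and -0.22 (95% interval -0.45 to 0.02, adjusted p = 0.161), so a 2-fold loss lies outside both intervals. Without TCR replicate 1, the difference of Tnfsf4 was -0.37 (adjusted p = 0.037), and on a common FPKM sum per library it was 0.02. Fasl was at 42.1, 42.1 and 43.6 FPKM, each above every TCR culture, a difference of 0.10 (95% interval -0.01 to 0.22, adjusted p = 0.17). The Fasl difference was 0.29 (adjusted p = 0.00186) on a common FPKM sum and 0.17 (adjusted p = 0.0298) after quantile normalisation, each within 2-fold. The plot of fold changes sets these differences beside those of the other contrasts.

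**Figure D2:**
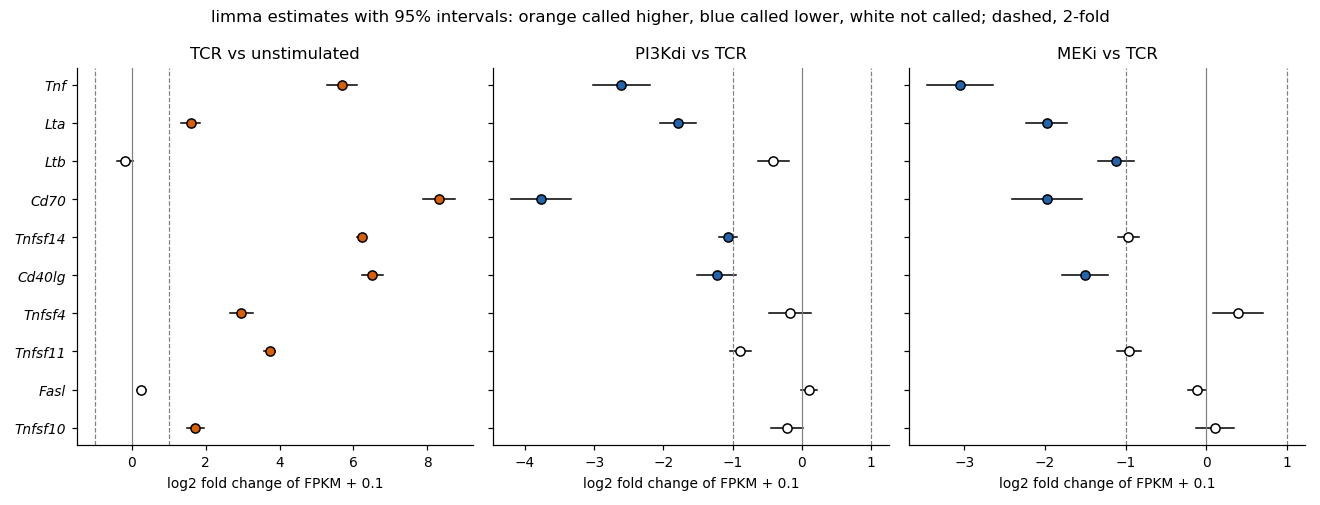
Log2 fold changes of FPKM + 0.1 (x axis, scaled separately per panel) for the 10 ligands in 3 contrasts; points are limma estimates, bars 95% intervals, orange called higher, blue called lower, white not called, and dashed lines mark 2-fold. TCR raised 8 ligands, and PI3Kdi and MEKi each lowered 5, with Tnfsf11 and Tnfsf14 at or near the 2-fold line for both.

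A second question was which ligand mRNA need MEK1/2 activity. MEKi lowered 5 of the 10 ligands (Tnf, Lta, Ltb, Cd70 and Cd40lg) and raised none, where 2.51% of all genes were called lower, 0.980% higher and 3.49% in either direction. The median log2 difference was -1.04 over the ligands and 0.01 over all genes, and the values did not overlap for 9 of the 10, against 48.8% of all genes. Without MEKi replicate 2 the count was 7, with Tnfsf11 and Tnfsf14 added.

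Tnf fell to 276, 567 and 384 FPKM, 12.6% ± 4.53 of the TCR mean (log2 difference -3.05, SE 0.19, adjusted p = 3.33e-08). Replicate 2 was the highest of the MEKi cultures for Tnf, at 567 FPKM, and also for Lta, at 123 FPKM against 81.9 and 97.4 FPKM in the others. Lta stood at 25.6% ± 5.31 of the TCR mean (log2 difference -1.98, SE 0.12, adjusted p = 2.30e-08) and within 2-fold of unstimulated CTL (difference -0.39, 95% interval -0.64 to -0.13, adjusted p = 0.0117). Ltb, which TCR alone had not changed past the threshold, was lowered to 16.3, 21 and 19.2 FPKM (log2 difference from TCR -1.12, SE 0.10, adjusted p = 1.36e-06), below every culture of the 3 other groups. Against unstimulated CTL its difference was -1.31 (adjusted p = 4.35e-08), the only ligand called lower in that contrast. The Ltb call against TCR was lost with limma treat and on the common FPKM sum, where the difference was -0.86.

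Cd40lg was lowered to 36.4, 42.6 and 38.9 FPKM, 35.2% ± 2.80 of the TCR mean (log2 difference -1.51, SE 0.13, adjusted p = 9.46e-07). Because CD4+ T cells are a well-known source of CD40L, the Cd4 mRNA is given beside it. Cd4 was at 0.89, 0.99 and 0.44 FPKM in unstimulated CTL, 2.65, 2.54 and 2.87 FPKM with TCR, 3.65, 1.96 and 3.20 FPKM with PI3Kdi, and 0.66, 0.41 and 0.28 FPKM with MEKi. Cd4 thus moved with the groups (log2 change 1.74 with TCR, adjusted p = 9.53e-05, and -2.40 for MEKi against TCR, adjusted p = 2.31e-05), but differed from Cd40lg under PI3Kdi, where the Cd4 difference was 0.08 (adjusted p = 0.866). Of that 2-gene marker list only Cd4 was in the table, at no more than 3.65 FPKM in any library, and its part in the Cd40lg values was not tested.

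Cd70 was lowered to 8.74, 10.3 and 10.9 FPKM, 25.4% ± 2.84 of the TCR mean (log2 difference -1.97, SE 0.20, adjusted p = 4.39e-06). Tnfsf11 (141, 169 and 154 FPKM) and Tnfsf14 (120.1, 136 and 127 FPKM) again stood at similar shares of their TCR level, 51.4% ± 4.74 and 51.2% ± 3.18. Their log2 differences of -0.96 (SE 0.07, adjusted p = 1.47e-07) and -0.97 (SE 0.06, adjusted p = 3.12e-08) were under the 2-fold threshold.

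Tnfsf4 and the death ligands were not called lower with MEKi. Tnfsf4 was at 49.8, 51.1 and 57.5 FPKM, above every TCR culture, with a log2 difference of 0.39 (95% interval 0.08 to 0.70, adjusted p = 0.0453) that was within 2-fold. Without TCR replicate 1, the low culture, this difference was 0.19 with an adjusted p of 0.217. Tnfsf10 was at 12.7, 14.5 and 11.7 FPKM, a difference of 0.11 (95% interval -0.13 to 0.34, adjusted p = 0.471). Fasl was at 36.9, 35.8 and 37.1 FPKM, each below every TCR culture, a difference of -0.12 (adjusted p = 0.104). On the common FPKM sum the Fasl difference was 0.14.

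The inhibitor groups share the TCR cultures as their reference, so they were also compared directly. Of the 10 ligands, Cd70 alone was called: it was higher with MEKi than with PI3Kdi by 1.79 on the log2 scale (SE 0.20, adjusted p = 1.35e-05), 3.54-fold, where 1.39% of all genes were called higher, 1.71% lower and 3.09% in either direction. Every MEKi culture lay above every PI3Kdi culture for Cd70, and 6 of the 10 ligands had groups that did not overlap, against 43.6% of all genes. The call was lost when the 2-fold limit was built into the test (limma treat). Its neighbour Tnfsf14 was at 119 ± 5.29 FPKM with PI3Kdi and 128 ± 7.92 FPKM with MEKi, and the ratio of Tnfsf14 to Cd70 mRNA was 6.35 ± 0.301 with TCR, 42.7 ± 4.42 with PI3Kdi and 12.9 ± 1.09 with MEKi.

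**Figure D3:**
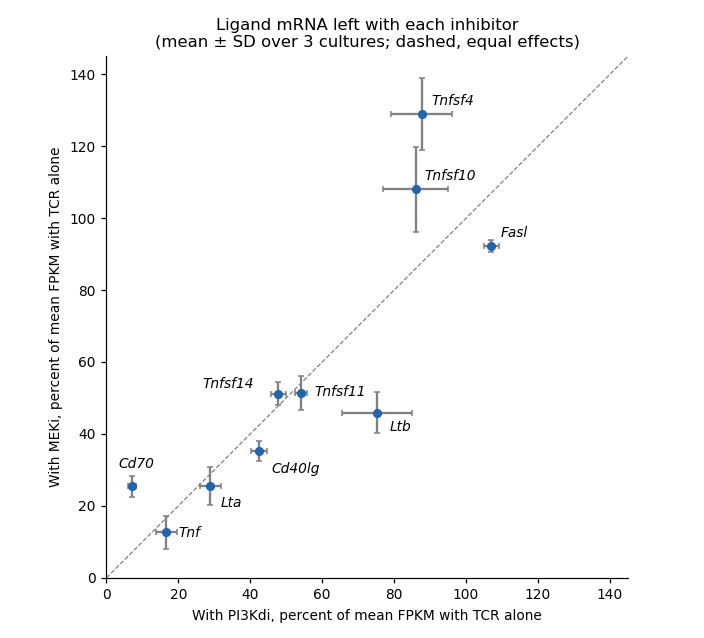
Level of each ligand with PI3Kdi (x axis) and with MEKi (y axis) as a percent of its mean FPKM with TCR alone; points are means and bars the SD over 3 cultures, and the dashed line marks equal levels. Cd70 stands above the line (7.16% and 25.4%), Ltb below it (75.3% and 45.9%), and Tnf and Lta lie nearest the origin with Cd70.

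The other 9 ligands were within 2-fold between the inhibitors, and 5 of them had an adjusted p above 0.05. The difference of MEKi from PI3Kdi was -0.44 for Tnf (95% interval -0.85 to -0.03, adjusted p = 0.0996), -0.19 for Lta (-0.45 to 0.06, adjusted p = 0.244), -0.27 for Cd40lg (-0.56 to 0.01, adjusted p = 0.137), -0.08 for Tnfsf11 (-0.23 to 0.08, adjusted p = 0.452) and 0.10 for Tnfsf14 (-0.03 to 0.23, adjusted p = 0.236). Those intervals all exclude a 2-fold difference. For Tnf, the adjusted p was 0.0385 with the replicate number as a block, and without MEKi replicate 2 the difference was -0.71 (adjusted p = 0.00407), still within 2-fold. The Cd40lg groups did not overlap, and its adjusted p was 0.0133 in a fit of both groups alone and 0.0389 with a pseudocount of 1. For Lta, the difference was -0.35 (adjusted p = 0.0239) without MEKi replicate 2. Ltb was lower with MEKi than with PI3Kdi (-0.71, adjusted p = 0.000119), as was Fasl (-0.22, adjusted p = 0.00633), while Tnfsf4 (0.56, adjusted p = 0.00922) and Tnfsf10 (0.33, adjusted p = 0.037) were higher, each within 2-fold. The adjusted p of Tnfsf10 was 0.155 without MEKi replicate 2.

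How much of the TCR response was left with each inhibitor? Compared with unstimulated CTL, 7 ligands were still called higher with PI3Kdi and 0 lower, where 7.16% of all genes were called higher, 7.43% lower and 14.6% in either direction. With MEKi 7 were called higher and 1 lower, against 6.95% higher, 6.46% lower and 13.4% in either direction over all genes. Those higher were Tnf, Cd70, Cd40lg, Tnfsf4, Tnfsf10, Tnfsf11 and Tnfsf14 in both contrasts, which share the unstimulated cultures. For Cd70, the low-count filter again favoured a higher call. Of the rise in mean FPKM with TCR, Tnf kept 14.9% with PI3Kdi and 10.9% with MEKi, and Cd70 kept 7.09% and 25.3%. Cd40lg kept 41.9% and 34.5%, Tnfsf14 47.1% and 50.6%, and Tnfsf11 50.4% and 47.5%. Tnfsf10 kept 80.1% and 112%, and Tnfsf4 86.0% and 133%. Lta kept none of it, with means of 114 ± 11.9 and 101 ± 20.9 FPKM that lay below the unstimulated mean of 130 FPKM. In order of mean level, Tnf, Cd40lg, Tnfsf11 and Tnfsf14 were therefore highest with TCR, intermediate with the inhibitors and lowest in unstimulated CTL. The inhibitors did not differ past the threshold for these genes. The step from TCR passed it with both inhibitors for Tnf and Cd40lg, with PI3Kdi alone for Tnfsf14, and with neither for Tnfsf11. For Cd70 the order was TCR, MEKi, PI3Kdi and unstimulated, each step past the threshold. Tnfsf4 and Tnfsf10, like Tnfsf11, had 3 stimulated groups within 2-fold of each other and a lower unstimulated group.

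Other genes of the pathway were followed through lists, which were also chosen with earlier results of these data known. Of 8 further ligand genes, 3 were in the table, and 2 of these were called higher with TCR, against 8.87% of all genes. Tnfsf9, the gene of 4-1BBL, lies 38.2 kb from Cd70 and rose from 3.33 ± 0.0200 to 64.6 ± 3.08 FPKM (log2 change 4.24, adjusted p = 7.76e-14), and it was called lower both with PI3Kdi (22.8 ± 2.33 FPKM, log2 difference -1.50, adjusted p = 4.39e-07) and with MEKi (24.8 ± 4.70 FPKM, log2 difference -1.39, adjusted p = 2.62e-07). Tnfsf8, the gene of CD30L, rose from 22.5 ± 1.05 to 155 ± 23.7 FPKM (log2 change 2.76, adjusted p = 8.37e-10). It was called lower with MEKi (39.6 ± 7.94 FPKM, log2 difference -1.97, adjusted p = 3.72e-07), and the direct comparison of MEKi with PI3Kdi gave -1.34 (adjusted p = 1.97e-05), the opposite direction to Cd70. Tnfsf13b, the gene of BAFF, fell from 1.86 ± 0.347 to 0.340 ± 0.0346 FPKM with TCR (log2 change -2.14, adjusted p = 3.00e-07).

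Receptors of the 10 ligands were followed in the same contrasts. With TCR, 3 of the 9 listed receptors in the table were called higher and 0 lower, against 8.87% and 11.1% of all genes. Tnfrsf4, the gene of OX40, rose 36-fold to 148 ± 29.5 FPKM (adjusted p = 7.19e-12), Cd27, the receptor of CD70, rose 7.87-fold to 114 ± 3.35 FPKM (adjusted p = 6.20e-14), and Fas rose 2.20-fold to 9.88 ± 1.73 FPKM (adjusted p = 5.84e-06). With PI3Kdi and with MEKi, 0 of 9 were called against TCR by limma, near the 1.88% and 3.49% called over all genes. Of the 9, 2 and 6 had an unadjusted p under 0.05, for which no share over all genes is given here. Tnfrsf4 differed by -0.93 with PI3Kdi (adjusted p = 0.003) and -0.89 with MEKi (adjusted p = 0.00279). Cd27 was at 114 ± 3.73 FPKM with PI3Kdi, a log2 difference from TCR of 0.01 (adjusted p = 0.963), beside the 7.16% left of its ligand Cd70. Tnfrsf11b, the decoy receptor of RANKL, was called higher with MEKi than with PI3Kdi (log2 difference 1.13, adjusted p = 7.58e-06).

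Of 14 adaptors and death pathway genes, TCR raised 4 and lowered 0, against 8.87% and 11.1% of all genes. The largest rises were in Tnfaip3, the gene of the NF-κB inhibitor A20 (log2 change 4.58, adjusted p = 3.19e-17), Traf5, an adaptor of several T cell costimulatory receptors (3.25, adjusted p = 2.36e-11), and Cflar, the gene of the caspase 8 inhibitor c-FLIP (1.58, adjusted p = 4.90e-11). With PI3Kdi 0 of the 14 were called by limma (7 had an unadjusted p under 0.05), where 1.88% of all genes were called. MEKi lowered 1, Traf5 (log2 difference -1.44, adjusted p = 1.94e-06), where 2.51% of all genes were called lower. None of the 3 shedding and processing genes in the table, Adam17, Adam10 and Rhbdf2, was called by limma in any of the 6 contrasts. Over all genes, 1.88% to 20.0% were called in these contrasts. In each contrast 2 or 3 of the shedding and processing genes had an unadjusted p under 0.05. Rhbdf2, which brings the TNF-cleaving enzyme ADAM17 to the cell surface, had a TCR log2 change of 0.92 (adjusted p = 2.74e-07), and Adam10 came nearest to the limit, at 0.94 for MEKi against unstimulated (adjusted p = 1.51e-08).

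Of 9 genes whose products bind AU-rich or related mRNA elements, TCR raised 4 and lowered 1, against 8.87% and 11.1% of all genes. Zfp36l1 (log2 change 2.39, adjusted p = 8.75e-12) and Zc3h12a, the gene of the mRNA-cleaving enzyme Regnase-1 (2.14, adjusted p = 9.06e-12), rose the most, while Zfp36l2 fell (-2.12, adjusted p = 2.46e-11). PI3Kdi lowered Zc3h12a from 28.1 ± 1.01 to 13.6 ± 1.01 FPKM (log2 difference -1.05, adjusted p = 1.02e-06). Zfp36, the gene of tristetraprolin, which binds the elements of the kind printed above for Tnf, was at 31.1 ± 1.02 FPKM with TCR, 51.0 ± 5.12 FPKM with PI3Kdi and 21 ± 0.380 FPKM with MEKi, so that it was lower with MEKi than with PI3Kdi (log2 difference -1.27, adjusted p = 1.60e-08). In the same cultures, Tnf was at 539 ± 96.4 and 409 ± 147 FPKM. Any part of these proteins in the level of ligand mRNA was not tested.

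Which genes had profiles most like those of the ligands? Pearson's r of log2(FPKM + 0.1) over the 12 libraries was taken against 10232 genes, as a description only, because the libraries fall into 4 groups of 3 and any gene with the same order of group means gives a high r. Nearest to Tnf were Idi2 (0.990), Wdr12 (0.988) and Mafk (0.987), and nearest to Cd70 were Nfkbid (0.994), Rassf3 (0.992) and Rcl1 (0.992). Cd40lg was nearest to Il10 (0.997), Mpzl2 (0.997) and Qtrtd1 (0.996), and Tnfsf14 to Stx6 (0.999), Ccl9 (0.999) and Il3 (0.998). Lta was nearest to Tns1 (0.977), Itpripl2 (0.957) and Synj2 (0.934), and Ltb to Il12rb1 (0.963), Ehd2 (0.959) and Lef1 (0.950). Between the adjacent genes, r was 0.72 for Tnf and Lta and -0.08 for Tnf and Ltb.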

How the data were processed

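RNA was sequenced from 12 cultures of P14 CTL (TruSeq stranded mRNA libraries, paired-end). The authors aligned reads to mm10 with STAR 2.4.2a, counted them per RefSeq gene with Subread 1.5.0, removed genes with low counts, scaled by TMM in edgeR, and deposited FPKM of 11022 genes, based on summed non-overlapping exon length and rounded in the file. The strand setting of the counting is not given in the sources used here. Value columns that matched no sample numbered 0. Read totals are not in the table, so an effective depth was inferred from how low FPKM values are spaced. Whole reads were not recovered: 48.6% to 59.5% of low values lay within 0.15 of a whole read. Chance gives 30% at a depth set beforehand. The depth was chosen to bring these same values nearest to whole reads, so 30% understates chance here.

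With limma 3.58.1 (R 4.3.3, eBayes with trend), log2(FPKM + 0.1) of all genes was modelled over the 12 libraries by group, and 6 contrasts were taken. Fold changes on this scale understate the change of low genes, while fold values printed in the text are ratios of mean FPKM. The p-values measure the spread between these cultures, and the main fit treats cultures of different groups as independent. Figures and summaries used Python 3.11.15. The procedure was tested on simulated data. The 10 ligands and the lists were chosen with earlier results of these data known. From each list, up to 3 called genes with the largest absolute change were named per contrast. Likeness was computed among genes with a mean FPKM of at least 1 in any group, and the 3 nearest genes outside the family are given for ligands called in an inhibitor contrast. Other genes beyond these rules (Cd27 and Tnfrsf4 with the inhibitors, Rhbdf2, Adam10, Zfp36 and the markers) were named after their values were seen.

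The paper describes 3 mice as the source of 3 biological replicates, so the 12 cultures appear to share donors across groups. Equal replicate numbers are not stated to mark the same mouse. Deviations from group means of same-numbered cultures were correlated across 9899 genes. The values were 0.239 to 0.451 for PI3Kdi and TCR, 0.122 to 0.182 for MEKi and TCR, and 0.137 to 0.149 for MEKi and PI3Kdi. Against unstimulated they were 0.117 to 0.147 for MEKi, 0.0037 to 0.153 for TCR and -0.0615 to 0.114 for PI3Kdi. A shared source would hold across all groups at once, so these correlations do not settle whether equal numbers pair the cultures. The main fit held no replicate term, and the replicate block was run as an alternative. Alternatives were pseudocounts of 1 and 0.01, a mean FPKM of at least 1, a common FPKM sum per library (TPM scale), the replicate block, quantile normalisation, the compared groups alone, no trend, no fold threshold, limma treat, and leaving out each replicate. Positions come from GENCODE M21 and promoters from RefSeq. Protein sequences were not used here.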

Additional observations from a re-analysis of the deposited data

How the results depend on the processing

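Of 840 values of single ligands under the alternatives, 830 kept their direction and their side of the threshold. A common FPKM sum per library moved the median log2 change of all genes to -0.412 for TCR against unstimulated, 0.192 for PI3Kdi against TCR, 0.263 for MEKi against TCR and 0.072 for MEKi against PI3Kdi, and the share of higher calls from 44.4% to 22.1%, 26.6% to 52.7%, 28.1% to 61.5% and 44.9% to 54.3%. The 5 reversals were all on that scale: Fasl -0.15 with TCR, 0.14 for MEKi against TCR and 0.00 for MEKi against unstimulated, Tnfsf4 0.02 for PI3Kdi against TCR, and Tnfsf11 0.00 for MEKi against PI3Kdi. Without a fold threshold, MEKi against TCR gave 8 ligands (Tnfsf4, Tnfsf11 and Tnfsf14 added to the 5) and MEKi against PI3Kdi gave 5. The share of all genes called without that threshold is not given here, so these counts cannot be set against it. With limma treat, PI3Kdi against TCR gave 3 (Cd40lg and Tnfsf14 lost), MEKi against TCR 3 (Ltb and Cd40lg lost) and MEKi against PI3Kdi 0. That test asks for evidence that a change exceeds 2-fold, which is stricter than the call used here. The 95% intervals of Cd40lg with PI3Kdi (-1.52 to -0.95) and of Ltb with MEKi (-1.34 to -0.9) include a 2-fold change. No share of all genes is given for it. Leaving out each replicate gave 8 for TCR, 5 for PI3Kdi against TCR, 5 to 7 for MEKi against TCR and 1 for MEKi against PI3Kdi. With the replicate block the counts were 8, 5, 5 and 1, and the pairing changed no call of a ligand. Depth limits Cd70 in unstimulated CTL, where 0.09 FPKM is about 1 read at the estimated depth.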
